A study of Rattus norvegicus with 21 samples.

Results

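The comparison described here set 9 heart libraries whose sample titles carry an F number (F1, F2, F4 or F5) against the 9 injured libraries without one, with the type of injury as a covariate. These are 18 of the 21 libraries of the series; the 3 Sham libraries carried no counterpart with F and were not used in the fit. All came from Sprague Dawley rats, and the RNA was taken from the infarct zone. The left anterior descending coronary artery, which feeds the front wall of the left ventricle, was tied in 3 ways. In MI24h it stayed tied until the tissue was taken at 24 h. In MI1h_R and MI6h_R it was tied for 1 h or 6 h and then reopened. The matching groups with F were MI24h_F, MI1h_F (1 h tied, 23 h reopened) and MI6h_F (6 h tied, 18 h reopened), and every one of the 6 groups held 3 libraries. The 3 injuries are called MI24h, MI1h and MI6h below. The letter F is not spelled out in the sample labels. The study's design text names pretreatment with fenofibrate, an approved PPARα agonist, and the group label of the F libraries gives the injury only, so membership rested on the titles. No group analysed here had F without injury, and dose and vehicle are not given in the sources used here. The labels do not say whether each library came from its own animal or when libraries were prepared, so the p-values measure the spread between these libraries, and F and a shared preparation of the F libraries cannot be told apart.

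PPARα is a nuclear receptor that is switched on by fatty acids and by fibrate drugs. Together with its partner RXR it binds DNA and raises genes for fatty acid uptake, mitochondrial and peroxisomal fatty acid oxidation and ketone formation, and it is known to repress inflammatory genes through NF-κB and AP-1. The heart normally burns mostly fatty acids, and the estrogen-related receptors (ERRα, ERRβ and ERRγ) drive the same oxidative genes. After a coronary occlusion, damaged muscle releases signals that call in neutrophils and macrophages, and fibroblasts then divide and lay down collagen.

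Depth was similar across the libraries, with 12208041 to 18393795 gene counts each. Mitochondrially encoded RNA made up 17.5% ± 1.68 of counts with F and 15.2% ± 2.75 without (SD, n = 9 each; exact permutation within injury, two-sided p = 0.0615, adjusted over 5 library measures 0.253). Neither the total count nor the TMM scaling factor, the share of the 100 highest genes or the number of genes with a count differed by this test (adjusted p from 0.253 to 0.951). Markers of cardiomyocytes were plentiful in every library, with summed levels of 4646 to 24620 CPM (counts scaled to a common library size) with F and 5827 to 18771 without. The file lists 17085 genes and 11656 of them had enough counts to be tested. Among the tested genes 486 had exactly the same counts as another one in every library, so each of these 220 sets is 1 measurement under several names.

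**Figure D1:**
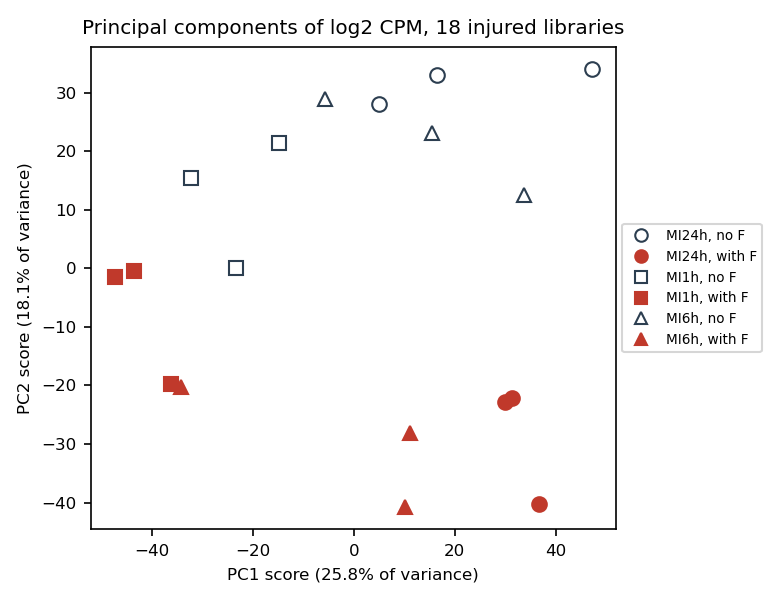
Each point is 1 of the 18 injured libraries, placed by its scores on the first and second principal components of log2 CPM; filled red symbols have F, open symbols do not, and shape gives the injury. Libraries with F lie below those without F of the same injury along PC2, and the injuries are spread along PC1.

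Across the 3 injuries, 3340 of the 11656 genes differed between the libraries with and without F (edgeR adjusted p under 0.05), which is 28.7%. Of these, 1546 (13.3%) were higher with F and 1794 (15.4%) were lower. Fold changes are given as log2 of F over no F, ± SE, so that 1 is a doubling. Most changes were modest. The median absolute log2 fold change of the called genes was 0.52, and 300 genes moved by at least 1 on the log2 scale, 171 of them up and 129 down. Of the called genes 3105 (93.0%) had the same sign in all 3 injuries, against 5417 (46.5%) of all genes tested. A call on the average of these same libraries favours such genes, so the 2 shares do not measure agreement between injuries. In 248 genes (2.13% of those tested) no library with F overlapped any library without F. PC1 of the library plot carried 25.8% of the variance, of which injury accounted for 71.4% and F for 2.5%. PC2 carried 18.2% with 76.8% of it accounted for by F and 1.4% by injury.

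The genes by which a PPARα agonist is usually recognised did not move together. Of 39 classical PPARα targets 31 were tested, and 1 was called higher and 0 lower, beside 13.3% and 15.4% of all genes. The median log2 fold change was -0.08 beside -0.0033 over all genes. By injury the list median was -0.32 in MI24h, 0.37 in MI1h and -0.15 in MI6h. The one called target was Cd36, the fatty acid translocase of the cell membrane. Its level was 63.5 to 201 CPM with F (median 130.1) and 31.8 to 105 CPM without (median 58.9), so the ranges overlapped, and the fold change was 0.87 ± 0.26 (edgeR adjusted p = 0.0163). The separate values were 1.52 in MI24h, 0.10 in MI1h and 0.99 in MI6h, and Cd36 was no longer called without MI24h (0.55), without MI6h or when the Sham libraries shared the fit. Pdk4, the kinase that shuts down pyruvate dehydrogenase and is among the most sensitive PPARα targets in heart, was at 14.1 to 88.3 CPM with F (median 37.3) and 13.6 to 117 CPM without (median 27.3). Its averaged fold change of 0.18 ± 0.41 did not pass the test, and the separate values were -0.75 in MI24h, 1.71 in MI1h and -0.32 in MI6h. Angptl4, a lipoprotein lipase inhibitor, averaged -0.35 ± 0.22, and the acyl-carnitine transporters Cpt1a and Cpt1b -0.08 ± 0.12 and -0.39 ± 0.40. None of these passed the test (edgeR adjusted p from 0.258 to 0.67). The lipid droplet coat gene Plin2 averaged -0.22 ± 0.17, the uncoupling proteins Ucp2 and Ucp3 0.00 ± 0.11 and 0.13 ± 0.57, and the thioesterase Acot2 -0.17 ± 0.34, again without a call. Acot1 had no row in the table and Fgf21 had too few counts to be tested.

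The wider lipid lists gave the same picture. Among 24 tested genes of mitochondrial fatty acid oxidation 0 were called higher and 1 lower, Etfb, a subunit of the electron transfer flavoprotein. Etfb was at 20.4 to 91.8 CPM with F (median 39.3) and 48.5 to 104 CPM without (median 75.8), a fold change of -0.72 ± 0.18 (edgeR adjusted p = 0.00668). Of 17 peroxisomal oxidation genes 2 were called higher and 1 lower. Hsd17b4, the bifunctional peroxisomal enzyme, rose by 0.30 ± 0.08 (edgeR adjusted p = 0.00811), with 0.31 in MI24h, 0.30 in MI1h and 0.30 in MI6h; it was not called when the Sham libraries shared the fit. The peroxisomal thioesterase Acot8 fell, with -0.51 ± 0.14 (edgeR adjusted p = 0.00998). Of 20 genes of fatty acid uptake and lipid droplets 2 were called higher and 4 lower, among the latter Dgat2, which makes triglyceride (-0.85 ± 0.24, edgeR adjusted p = 0.0148). With 1 injury left out, Etfb and Hsd17b4 lost the call without MI24h or MI6h (Etfb -0.48 and -0.68), and Acot8 and Dgat2 without MI1h or MI6h. The shares of these lists lie near or below the 13.3% higher and 15.4% lower found over all genes, except for the lower share of the uptake list.

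Among the receptors themselves, ERRα stood out. Esrra, which encodes ERRα, was at 54.8 to 81.8 CPM with F (median 63.1) and 86.3 to 136 CPM without (median 117). Every library with F lay below every library without F, and the fold change was -0.81 ± 0.09 (edgeR adjusted p = 2.9e-05), with -0.96 in MI24h, -0.49 in MI1h and -0.97 in MI6h. The ERR coactivator gene Pprc1 fell as well, with a log2 fold change of -0.35 ± 0.08 (edgeR adjusted p = 0.00503), although its groups overlapped (75.7 to 108 CPM with F (median 94.0) and 84.4 to 163 CPM without (median 119)) and the call was lost on log2(TPM + 1). Esrrb and Esrrg, for ERRβ and ERRγ, and the coactivator Ppargc1a had averaged values of -0.54 ± 0.48, 0.47 ± 0.27 and 0.71 ± 0.50 and were not called. The separate values for Esrrb were -1.86 in MI24h, 1.14 in MI1h and -1.04 in MI6h. Ppara itself averaged 0.31 ± 0.36, Ppard -0.08 ± 0.19, Pparg 0.23 ± 0.16 and the partner gene Rxra -0.04 ± 0.17, none of them called. Rxrb, another RXR gene, was the 1 of 15 members of the PPAR and RXR list that was called, at -0.39 ± 0.11 (edgeR adjusted p = 0.0101); the call was lost on log2(TPM + 1). Beside 15.4% of all genes, 4 of 24 ERR target genes were called lower and 0 higher, with a median of -0.24. Slc25a4, the ADP/ATP carrier of the mitochondrial inner membrane, was the largest of these, at -0.92 ± 0.22 (edgeR adjusted p = 0.0045) and -1.50 in MI24h, -0.20 in MI1h and -1.05 in MI6h. Slc25a4 and Rxrb were not called without MI24h (-0.62 and -0.36), nor Pprc1 and Rxrb without MI6h (-0.24 and -0.29).

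**Figure D2:**
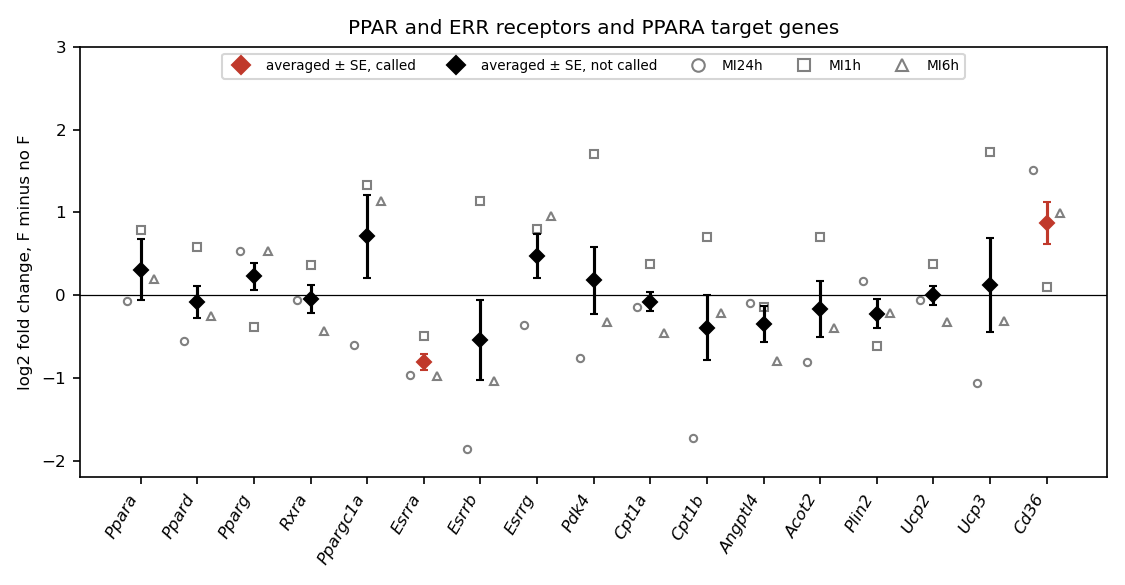
Log2 fold change of F over no F for PPAR and ERR receptors and PPARα target genes; diamonds with bars give the averaged value ± SE (red where called), and grey open symbols give the 3 injuries. Esrra lies at -0.81 with all injuries below 0, while Pdk4, Ucp3 and Cpt1b show injuries on both sides of 0.

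The largest falls included signalling, translation and short housekeeping genes. Tnfrsf12a, the TWEAK receptor that is induced in injured muscle, was at 36.4 to 57.7 CPM with F (median 49.5) and 93.9 to 222 CPM without (median 138). The groups did not overlap in any injury, and the gene fell, with a log2 fold change of -1.59 ± 0.14 (edgeR adjusted p = 3.68e-06), with -1.85 in MI24h, -1.23 in MI1h and -1.70 in MI6h. Lmcd1, a LIM-domain cofactor of muscle, was at 145 to 322 CPM with F (median 214) and 380.1 to 937 CPM without (median 533) and fell, with a log2 fold change of -1.36 ± 0.14 (edgeR adjusted p = 1.97e-05). Eif4ebp1, the repressor of cap-dependent translation that mTOR controls, was at 26.2 to 73.3 CPM with F (median 50.7) and 92.5 to 215 CPM without (median 113) and fell, with a log2 fold change of -1.37 ± 0.16 (edgeR adjusted p = 2.95e-05). None of these 3 genes had an F library within the range of the libraries without F. Socs3, the feedback inhibitor of cytokine signalling through STAT3, fell, with a log2 fold change of -1.37 ± 0.24 (edgeR adjusted p = 0.000607), but its ranges overlapped (8.28 to 29.2 CPM with F (median 12.2) and 13.05 to 105 CPM without (median 40.4)). Naa38, an accessory subunit of an N-terminal acetyltransferase, was at 4.39 to 20.4 CPM with F (median 14.0) and 33.3 to 66.6 CPM without (median 43.9) and fell, with a log2 fold change of -1.87 ± 0.21 (edgeR adjusted p = 2.9e-05), the largest fall among genes with a mean of at least 10 CPM and one sign in all 3 injuries. Cops9 of the COP9 signalosome (-1.71 ± 0.17), the prefoldin subunit Pfdn6 (-1.57 ± 0.17) and Tomm7 of the mitochondrial import pore (-1.61 ± 0.27) followed. These last 4 have short transcripts, at 0.55, 0.12, 0.21 and 0.06 of the typical gene length. With the length trend of each library removed their values were -1.78, -1.54, -1.41 and -1.49, and all 4 were still called. The pair LOC679739 and LOC100912599 had identical counts and a fold change of -1.81, so it counts once.

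Bax, Bak1 and Bcl2l1, which act on the mitochondrial pathway of cell death, were lower with F. Bax, which opens the mitochondrial outer membrane, was at 23.2 to 38.1 CPM with F (median 33.4) and 58.0 to 94.4 CPM without (median 69.4). No library overlapped, and the fall was of nearly the same size in each injury (-1.11 in MI24h, -1.09 in MI1h and -1.34 in MI6h; averaged -1.18 ± 0.12, edgeR adjusted p = 1.26e-05). Bak1, its close relative, fell, with a log2 fold change of -0.41 ± 0.07 (edgeR adjusted p = 0.000662). Bcl2l1, which encodes the protective protein Bcl-xL, also fell, with a log2 fold change of -0.64 ± 0.09 (edgeR adjusted p = 0.000148), from 124 to 209 CPM without F to 92.4 to 122 with it. Gsdmd, the pore protein of pyroptosis, fell, with a log2 fold change of -0.43 ± 0.11 (edgeR adjusted p = 0.00579), but was not called without MI24h or without MI6h (-0.36 and -0.40). Over the whole list of 19 tested death genes, 3 were called higher and 4 lower, beside 13.3% and 15.4% of all genes. Genes that promote and genes that restrain death were both among the falls.

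Immediate early genes, many of which encode transcription factors, respond within minutes to stress and growth signals. They were the list with the most uniform fall. All 18 tested members had a negative value and 11 were called lower, 0 higher, which is well above the 15.4% of all genes called lower; the median was -0.46. After removal of the length trend 10 of the 18 were called, and without the F4 libraries of MI24h_F and MI6h_F 9 were. Fosl1, a partner of Jun in AP-1, was at 15.1 to 52.4 CPM with F (median 41.3) and 30.3 to 97.2 CPM without (median 55.6) and fell, with a log2 fold change of -0.83 ± 0.13 (edgeR adjusted p = 0.000305), with -0.67 in MI24h, -0.88 in MI1h and -0.94 in MI6h. Junb was at 141 to 344 CPM with F (median 183) and 167 to 804 CPM without (median 328) and fell, with a log2 fold change of -0.83 ± 0.15 (edgeR adjusted p = 0.000571). Their ranges overlapped over all injuries, the levels without F being lowest in MI1h, yet all 9 F libraries lay below the median of their own injury's libraries without F. Nr4a1, an orphan nuclear receptor, fell, with a log2 fold change of -0.57 ± 0.11 (edgeR adjusted p = 0.00139) and Btg2, an antiproliferative factor, at -0.48 ± 0.11 (edgeR adjusted p = 0.00373). Btg2 was not called without MI1h or MI6h (-0.35 and -0.48). Srf, the serum response factor that drives many of these genes and the contractile genes, was at 156 to 203 CPM with F (median 168) and 206 to 291 CPM without (median 253). Its groups did not overlap and it fell, with a log2 fold change of -0.55 ± 0.07 (edgeR adjusted p = 4.75e-05), with -0.66 in MI24h, -0.43 in MI1h and -0.58 in MI6h. SRF binds the CArG box, and the Srf promoter is shown because it carries this motif itself; the capitals mark the matches, which start 81 and 61 bases before the gene start.
Srf, GRCr8 chr9:21923970-21924029, plus strand: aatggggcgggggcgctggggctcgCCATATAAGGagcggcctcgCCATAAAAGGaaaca
Promoter sequences are RefSeq's, on build GRCr8, which is not the build of the counts, and cover 250 bases before to 50 after each gene start. They were matched to 9221 of the 11656 tested genes (79.1%), and 105 of these (1.14%) held a CArG box on either strand. In the immediate early list 11 of the 18 tested members had a promoter, and 3 held one (Egr1, Egr2 and Klf6), of which Klf6 was called lower. With fewer than 80% of the genes matched, a comparison of these shares is void.

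Genes of the NF-κB pathway and of several stress responses were also lower more often than the 15.4% of all genes. Of 20 tested NF-κB pathway genes 9 were called lower and 1 higher, with a median of -0.27. Nfkb2, which encodes a precursor subunit of NF-κB, fell, with a log2 fold change of -0.50 ± 0.10 (edgeR adjusted p = 0.00141), and the atypical inhibitor Bcl3 at -0.51 ± 0.11 (edgeR adjusted p = 0.00174). The exception was Vcam1, the adhesion molecule that holds leukocytes on endothelium. It was at 16.2 to 33.1 CPM with F (median 24.3) and 6.52 to 19.3 CPM without (median 15.4) and rose by 0.86 ± 0.20 (edgeR adjusted p = 0.00373), with 0.59 in MI24h, 0.86 in MI1h and 1.12 in MI6h. Of 22 genes of the unfolded protein and integrated stress response 7 were called lower and 0 higher. Ppp1r15a, the phosphatase subunit GADD34 that ends translational arrest, was at 43.4 to 126 CPM with F (median 56.1) and 79.6 to 253 CPM without (median 144) and fell, with a log2 fold change of -0.99 ± 0.14 (edgeR adjusted p = 0.00011). Atf4, the transcription factor at the centre of that response, fell, with a log2 fold change of -0.60 ± 0.13 (edgeR adjusted p = 0.0028), and Sdf2l1, an endoplasmic reticulum chaperone cofactor, at -0.62 ± 0.09 (edgeR adjusted p = 0.000107). Of 24 NRF2 and antioxidant genes 8 were called lower and 1 higher. Sod2, the mitochondrial superoxide dismutase, fell, with a log2 fold change of -0.73 ± 0.16 (edgeR adjusted p = 0.00293), but so did Keap1, the repressor of NRF2 (-0.53 ± 0.14, edgeR adjusted p = 0.00769). Heat shock chaperones had 7 of 15 called lower and 1 higher. Without the 2 F4 libraries 3 of the 15 were called lower, and with the length trend removed 4 were. The small heat shock proteins Hspb8 (-0.72 ± 0.15, edgeR adjusted p = 0.00172) and Hspb7 (-1.07 ± 0.24, edgeR adjusted p = 0.003), both abundant in heart muscle, were among them. Cytokines and chemokines did not stand apart from that share. Of 26 chemokines 3 were called lower and 1 higher, and 0 lower and 1 higher with the length trend removed. Of 15 cytokines 3 were called lower and 1 higher, and 2 lower and 1 higher with the trend removed. Clcf1, a cytokine of the IL-6 family, was at 3.32 to 9.49 CPM with F (median 7.12) and 8.29 to 21.3 CPM without (median 11.3) and fell, with a log2 fold change of -1.15 ± 0.17 (edgeR adjusted p = 0.000168). Il33, an alarmin stored in the nuclei of stromal cells, rose by 0.81 ± 0.19 (edgeR adjusted p = 0.00479), with 1.29 in MI24h, 0.19 in MI1h and 0.94 in MI6h. Several of these calls needed all injuries. Without MI24h Keap1 (-0.33), Hspb7 (-0.68) and Il33 (0.57) were not called, and without MI6h Sod2 (-0.47), Keap1 (-0.52), Nfkb2 (-0.38), Bcl3 (-0.40), Hspb8 (-0.59) and Il33 (0.75) were not.

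Genes of the ribosome, the proteasome and the respiratory chain were lower more often than the 15.4% of all genes, and most of them are short. Of 51 cytosolic ribosomal protein genes 15 were called lower and 0 higher, with a median of -0.22. Rps2 was at 740.3 to 1247 CPM with F (median 953) and 1231 to 1869 CPM without (median 1626) and fell, with a log2 fold change of -0.71 ± 0.11 (edgeR adjusted p = 0.000233), and Rpl13 fell, with a log2 fold change of -0.79 ± 0.13 (edgeR adjusted p = 0.000419) with no overlap (272 to 595 CPM with F (median 504) and 641 to 1005 CPM without (median 769)). Ribosomal proteins have many processed copies in the genome, so the split of reads between them is uncertain. Once the length trend was removed, 11 were called lower and 6 higher and the median was -0.05, so the direction of the list as a whole rested on that step. Of 26 mitochondrial ribosome genes 9 were called lower and 1 higher, and 7 lower and 2 higher once the trend was removed, with the median moving from -0.22 to -0.10. Mrps7, at 23.2 to 43.7 CPM with F (median 31.6) and 48.9 to 74.7 CPM without (median 57.1) without overlap, fell, with a log2 fold change of -0.86 ± 0.11 (edgeR adjusted p = 6.57e-05) and remained called after length removal at -0.73. Of 27 proteasome genes 8 were called lower and 1 higher, and 6 lower and 3 higher once the trend was removed, with the median moving from -0.17 to -0.06; limma-voom called 6 lower and 5 higher. Psmd4, a ubiquitin receptor of the proteasome, was at 108 to 122 CPM with F (median 113) and 134 to 181 CPM without (median 162), a log2 fold change of -0.46 ± 0.07 (edgeR adjusted p = 0.000228) without overlap. Of 33 nuclear genes of oxidative phosphorylation 8 were called lower and 0 higher, and 3 lower and 1 higher once the length trend was removed. Cox5b, a subunit of cytochrome oxidase, was at 35.6 to 129 CPM with F (median 62.0) and 98.8 to 247 CPM without (median 157) and fell, with a log2 fold change of -1.18 ± 0.17 (edgeR adjusted p = 0.000107), or -1.01 with the length trend removed. Cox6a1, another subunit that the list did not hold, was at 86.5 to 153 CPM with F (median 114) and 174 to 319 CPM without (median 233) and fell, with a log2 fold change of -0.98 ± 0.10 (edgeR adjusted p = 1.26e-05) without overlap. Of the 13 transcripts of the mitochondrial genome itself 3 were called higher and 0 lower, beside 13.3% of all genes called higher, and 10 were not called. The list median was 0.22, and 6 were called higher with the length trend removed. COX2 was not called on log2(TPM + 1) or when the Sham libraries shared the fit. ND4 was not called without MI24h (0.52) or without MI6h (0.46). ND5, a complex I subunit, was at 5074 to 9014 CPM with F (median 7056) and 3504 to 6508 CPM without (median 4043) and rose by 0.62 ± 0.14 (edgeR adjusted p = 0.00295). The mitochondrial share of counts given above did not pass its own test (adjusted p = 0.253 by exact permutation). Of 16 glycolysis genes 5 were called lower and 0 higher, and 6 were lower after length removal. Gapdh, often taken as a constant gene, was at 1225 to 1950.0 CPM with F (median 1543) and 1716 to 3079.6 CPM without (median 1918) and fell, with a log2 fold change of -0.49 ± 0.10 (edgeR adjusted p = 0.00164), though it was not called without MI24h or MI6h (-0.41 and -0.43).

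**Figure D3:**
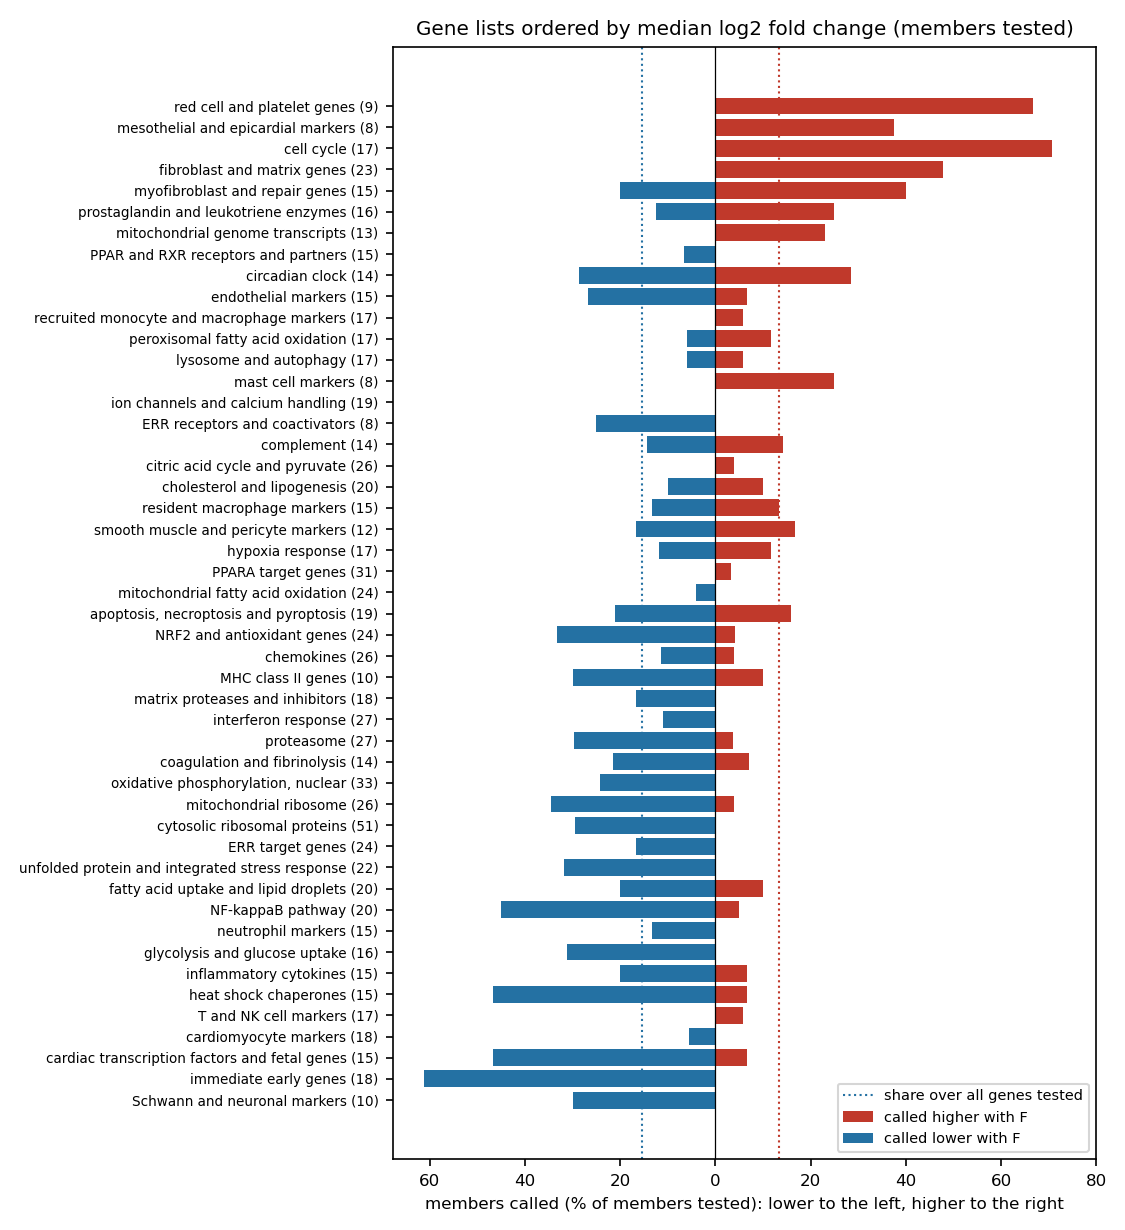
For each gene list with at least 8 tested members, bars give the percentage of members called lower (blue, left) and higher (red, right) with F, ordered by median log2 fold change; dotted lines mark the 15.4% and 13.3% found over all genes. Immediate early genes extend farthest to the left, and cell cycle and red cell genes farthest to the right.

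Cell division genes formed the clearest rise. Of 17 tested cell cycle genes 12 were called higher and 0 lower, against 13.3% of all genes called higher, and the median was 0.61. With the length trend removed 10 were called, and without the 2 F4 libraries also 10. Mki67, which encodes the proliferation antigen Ki-67, was at 67.5 to 265 CPM with F (median 119.8) and 30.7 to 128 CPM without (median 50.6). The ranges overlapped over all injuries, the levels without F being highest in MI1h, but all 9 F libraries lay above the median of their own injury's libraries without F, and the gene rose by 1.26 ± 0.20 (edgeR adjusted p = 0.000242), with 1.23 in MI24h, 0.86 in MI1h and 1.68 in MI6h. Ccna2 (cyclin A) rose by 1.07 ± 0.17 (edgeR adjusted p = 0.000307), and the spindle checkpoint kinase genes Bub1 and Bub1b by 1.18 ± 0.17 and 1.17 ± 0.19 (edgeR adjusted p = 0.000107 and edgeR adjusted p = 0.000366). Mitotic genes were also among the largest rises at a mean of at least 10 CPM. Cenpf, a kinetochore protein, was at 13.1 to 75.3 CPM with F (median 27.9) and 5.31 to 24.0 CPM without (median 7.85) and rose by 1.93 ± 0.26 (edgeR adjusted p = 8.34e-05). Nusap1 of the spindle (1.70 ± 0.28), Ckap2l (1.67 ± 0.23), the spindle pole gene Aspm (1.62 ± 0.22), and the kinesins Kif4a (1.58 ± 0.20) and Kif20b (1.55 ± 0.19) rose by similar amounts. Ncapg, a condensin subunit, was at 17.2 to 39.9 CPM with F (median 22.0) and 3.59 to 16.1 CPM without (median 7.56). Its groups did not overlap, and it rose by 1.66 ± 0.19 (edgeR adjusted p = 2.9e-05). Ckap5, a microtubule polymerase, rose by less but without overlap (0.75 ± 0.09, edgeR adjusted p = 2.9e-05). Genes of late mitosis often carry a cell cycle homology region (CHR), TTTGAA, close to the gene start, and the promoters of Bub1b and Ncapg are shown as examples of it among the genes that rose. The capitals mark the match, which starts 4 and 24 bases before the gene start.
Bub1b, GRCr8 chr3:126017038-126017097, plus strand: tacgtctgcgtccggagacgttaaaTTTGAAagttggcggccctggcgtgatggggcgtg
Ncapg, GRCr8 chr14:69645435-69645494, minus strand: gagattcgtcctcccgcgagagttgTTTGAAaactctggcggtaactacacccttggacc
TTTGAA stood on either strand in 1080 of the 9221 matched promoters (11.7%) and in 6 of the 14 matched promoters of the cell cycle list (Mki67, Cdk1, Bub1b, Plk1, Cdc20 and Mcm2). As above, too few genes were matched to compare these shares.

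Fibroblast and matrix genes rose as well. All 23 tested members were above 0, and the median was 0.42. Of them 11 were called higher, against 13.3% of all genes, and 0 lower. With the length trend removed 10 were called, and without the 2 F4 libraries 11. Col1a1, the main fibrillar collagen chain, was at 939 to 2836 CPM with F (median 1269.5) and 359.6 to 946 CPM without (median 544) and rose by 1.46 ± 0.24 (edgeR adjusted p = 0.000302), with 0.73 in MI24h, 1.61 in MI1h and 2.02 in MI6h. Ogn (osteoglycin) and Col14a1, both found in fibrillar matrix, rose by 1.52 ± 0.23 (edgeR adjusted p = 0.000194) and 1.51 ± 0.28 (edgeR adjusted p = 0.000729). The secreted glycoprotein gene Fstl1 was at 286 to 396 CPM with F (median 314) and 151 to 297 CPM without (median 201) and rose by 0.65 ± 0.11 (edgeR adjusted p = 0.000547). Summed over the list, fibroblast and matrix genes reached 11272 to 20631 CPM with F and 7893 to 13357 without. In bulk tissue, more fibroblasts and more RNA of these genes per fibroblast cannot be told apart, and the same holds for every cell type below.

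The genes of activated repair split. Of 15 tested myofibroblast and repair genes 6 were called higher and 3 lower, beside 13.3% and 15.4% of all genes. Cthrc1, a secreted marker of reparative fibroblasts, was at 7.27 to 13.6 CPM with F (median 10.6) and 2.26 to 7.02 CPM without (median 3.86), so no library overlapped, and it rose by 1.29 ± 0.16 (edgeR adjusted p = 3.78e-05). Fap, the fibroblast activation protease, rose by 0.80 ± 0.17 (edgeR adjusted p = 0.00184). Ccn2, the connective tissue growth factor, was at 552 to 786 CPM with F (median 678) and 710.1 to 1788 CPM without (median 1189) and fell, with a log2 fold change of -0.76 ± 0.15 (edgeR adjusted p = 0.00116). In the separate list of matrix proteases and inhibitors, 3 of 18 tested genes were called lower and 0 higher, beside 15.4% and 13.3% of all genes. Of this list Adamts1 and Adamts4, proteases that cut matrix proteoglycans, fell, with a log2 fold change of -0.69 ± 0.14 and -1.15 ± 0.28 (edgeR adjusted p = 0.00124 and edgeR adjusted p = 0.00496). Without MI6h, Fap (0.68) and Adamts4 (-0.89) were not called. Col1a1 thus had the opposite sign to Ccn2, Adamts1 and Adamts4 in the same libraries.

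**Figure D4:**
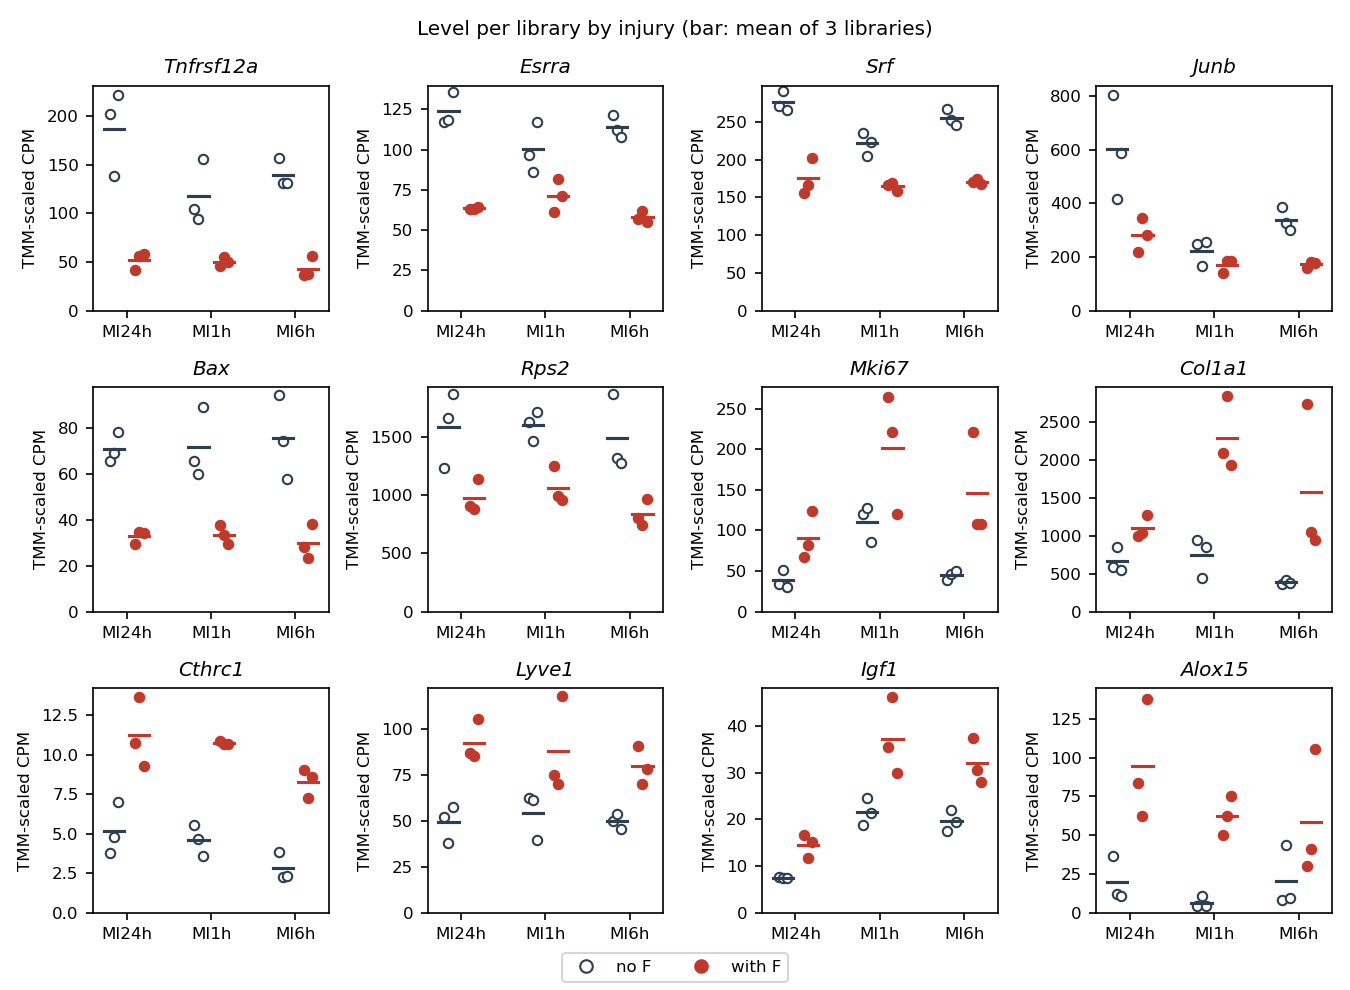
TMM-scaled CPM of 12 genes in each of the 18 libraries by injury; open circles have no F, filled red circles have F, and short bars are means of 3 libraries. Tnfrsf12a, Esrra, Srf, Junb, Bax and Rps2 are lower with F in each injury, and Mki67, Col1a1, Cthrc1, Lyve1, Igf1 and Alox15 are higher.

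Cardiomyocyte markers and ion channel genes showed few calls. Of 18 cardiomyocyte markers 0 were called higher and 1 lower (median -0.37), and of 19 ion channel and calcium handling genes 0 were called in either direction, with Atp2a2 at 0.25 ± 0.20 and Gja1 at 0.05 ± 0.18. The summed cardiomyocyte markers ranged widely with F, from 4646 to 24620 CPM around a median of 7839, against a median of 15974 without F, and the list medians were -1.28 in MI24h, 0.29 in MI1h and -0.20 in MI6h. The natriuretic peptide genes Nppa and Nppb, which are raised in stretched and failing heart, were among the cardiac genes called lower. Nppb was at 187 to 384 CPM with F (median 257) and 197 to 689 CPM without (median 397) and fell, with a log2 fold change of -0.75 ± 0.17 (edgeR adjusted p = 0.00329), and Nppa fell, with a log2 fold change of -0.73 ± 0.18 (edgeR adjusted p = 0.00552), with -1.25 in MI24h, -0.60 in MI1h and -0.35 in MI6h; Nppa was not called when the Sham libraries shared the fit, and neither gene was called without MI24h (Nppa -0.47, Nppb -0.58). Of 15 cardiac transcription factors and fetal genes 7 were called lower and 1 higher, beside 15.4% and 13.3% of all genes. The 7 were Nkx2-5, Srf, Nppa, Nppb, Acta1, Ankrd1 and Des. Without the 2 F4 libraries 4 were called lower. The part of the cardiomyocyte sum in these changes was not tested.

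Other cell markers moved by gene rather than by list. The counts of calls below stand beside 13.3% of all genes called higher and 15.4% called lower. Lyve1, carried by resident macrophages and lymphatic vessels, was at 70.0 to 118 CPM with F (median 85.3) and 37.8 to 62.7 CPM without (median 52.4) without overlap and rose by 0.76 ± 0.12 (edgeR adjusted p = 0.000315). Igf1, a growth factor of resident macrophages, rose by 0.81 ± 0.11 (edgeR adjusted p = 6.35e-05) with all 9 F libraries above the median of their own injury, while the complement gene C1qa of the same list fell, with a log2 fold change of -0.61 ± 0.16 (edgeR adjusted p = 0.00841). Of 15 resident macrophage markers 2 were called higher and 2 lower, and of 17 recruited monocyte and macrophage markers 1 was called higher. In the class II antigen presentation list RT1-Bb was at 5.16 to 63.2 CPM with F (median 10.8) and 16.1 to 76.9 CPM without (median 40.03) and fell, with a log2 fold change of -1.45 ± 0.38 (edgeR adjusted p = 0.00795), whereas the costimulator gene Cd86 rose by 0.88 ± 0.20 (edgeR adjusted p = 0.0039). Endothelial genes had 4 of 15 called lower and 1 higher, and 2 lower and 1 higher without the 2 F4 libraries. Egfl7, secreted by endothelium, was at 64.4 to 85.0 CPM with F (median 71.3) and 97.5 to 181 CPM without (median 116) without overlap and fell, with a log2 fold change of -0.78 ± 0.10 (edgeR adjusted p = 6.35e-05), while the endothelial sialomucin gene Emcn rose by 0.67 ± 0.16 (edgeR adjusted p = 0.00556). Il1r2, the decoy receptor of neutrophils, was at 8.56 to 224 CPM with F (median 56.8) and 22.7 to 396 CPM without (median 178) and fell, with a log2 fold change of -1.18 ± 0.34 (edgeR adjusted p = 0.0152). Of 15 neutrophil markers 2 were called lower and 0 higher, and 1 lower without the 2 F4 libraries. Of 8 mast cell markers 2 were called higher and 0 lower, with a median of 0.08. The mast cell protease gene Cpa3 rose by 1.20 ± 0.29 (edgeR adjusted p = 0.00559), from 1.17 to 8.67 CPM without F to 2.80 to 10.9 with it, but the summed mast cell level had nearly the same median with F as without (67.8 and 66.9 CPM). Without MI24h, C1qa (-0.40), Cpa3 (1.06), Emcn (0.54) and RT1-Bb (-1.22) were not called. Without MI6h, Cd86 (0.64), Emcn (0.52), Il1r2 (-0.88) and RT1-Bb (-1.03) were not, nor was Il1r2 without MI1h (-0.94).

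Red cell genes were among the largest rises. Of 9 tested members 6 were called higher, against 13.3% of all genes, and 0 lower, with a median of 1.80. Slc4a1, the anion exchanger of red cells, was at 8.86 to 42.6 CPM with F (median 15.6) and 0.826 to 16.5 CPM without (median 3.89) and rose by 2.01 ± 0.44 (edgeR adjusted p = 0.00281), with 1.89 in MI24h, 3.65 in MI1h and 0.87 in MI6h. Alas2, which starts heme synthesis in red cell precursors, rose by 1.86 ± 0.37 (edgeR adjusted p = 0.00139), the alpha globin chaperone gene Ahsp by 2.28 ± 0.47 (edgeR adjusted p = 0.00167) and Hemgn by 1.80 ± 0.33 (edgeR adjusted p = 0.000829). The F4 libraries of MI24h_F and MI6h_F held the most of these transcripts. Without both, 6 of 9 members were still called and the median was 1.36. Summed red cell and platelet genes ran from 3281 to 14350 CPM with F and from 966 to 5842 without; their part in other results was not tested.

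Lipid mediator and clock genes changed in both directions. Alox15, the 12/15-lipoxygenase that makes both inflammatory and resolving lipids, showed the largest rise among genes at or above 10 CPM. It was at 29.9 to 138 CPM with F (median 62.4) and 4.21 to 44.0 CPM without (median 10.6) and rose by 2.32 ± 0.41 (edgeR adjusted p = 0.000534), with 2.26 in MI24h, 3.25 in MI1h and 1.52 in MI6h. Cysltr1, a receptor for the cysteinyl leukotrienes, was at 2.57 to 8.10 CPM with F (median 4.17) and 0.443 to 2.52 CPM without (median 1.65) without overlap and rose by 1.73 ± 0.21 (edgeR adjusted p = 3.95e-05). Of 16 prostaglandin and leukotriene genes 4 were called higher and 2 lower, beside 13.3% and 15.4% of all genes. Of 14 circadian clock genes 4 were called higher (Per3, Nr1d1, Dbp and Tef) and 4 lower (Arntl, Per1, Per2 and Cry1). Nr1d1, the clock repressor REV-ERBα, was at 33.9 to 94.6 CPM with F (median 48.8) and 15.1 to 38.8 CPM without (median 25.3) and rose by 1.05 ± 0.21 (edgeR adjusted p = 0.00161), with 0.34 in MI24h, 1.82 in MI1h and 1.00 in MI6h. Arntl, which REV-ERBα represses and which encodes BMAL1, was at 22.6 to 35.8 CPM with F (median 25.5) and 29.0 to 41.4 CPM without (median 34.0) and fell, with a log2 fold change of -0.39 ± 0.10 (edgeR adjusted p = 0.00726), a call lost without MI24h or without MI1h (-0.32 in each), and Cry1 fell, with a log2 fold change of -0.60 ± 0.12 (edgeR adjusted p = 0.00168). Times of day are not given in the sources used here, and their part was not tested.

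The smallest p-value belonged to a single row. RGD1359290, which RefSeq lists as the pseudogene Rpl17-ps16, had 126 to 257 counts in each of the 9 libraries with F, and 0 to 7 counts in each of the 9 without. The 3 Sham libraries had 1 count each. The fitted fold change, which at such low counts depends on the model's prior count, was 6.31 ± 0.31 (edgeR adjusted p = 4.74e-10), with 6.67 in MI24h, 6.34 in MI1h and 5.98 in MI6h. RGD2320734, listed as the pseudogene Uqcr10-ps1, had 20 to 57 counts with F and 3 to 11 in the injured libraries without F, but 13 to 33 in Sham, a fold change of 2.41 ± 0.29 (edgeR adjusted p = 3.67e-05). The source of these counts was not tested, and the treatment and a batch or animal stock shared by the F libraries cannot be told apart. Among the genes with ordinary protein products, Pus1, a pseudouridine synthase, had one of the smallest p-values. It was at 23.5 to 35.3 CPM with F (median 30.6) and 48.2 to 60.02 CPM without (median 52.3), and fell, with a log2 fold change of -0.81 ± 0.07 (edgeR adjusted p = 3.68e-06). Arfip2 (-0.81 ± 0.09) and the prefoldin subunit gene Pfdn2 (-1.04 ± 0.10) fell, and Xpo7, an exportin (0.66 ± 0.08), Nup155 of the nuclear pore (0.61 ± 0.07), Sec23a of the COPII coat (0.69 ± 0.08), Ncoa4, the ferritin receptor of autophagy (0.63 ± 0.07), and Dsel (0.80 ± 0.10) rose, each without overlap between the 9 and 9 libraries.

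Seen by injury, the number of calls was very uneven. In MI24h 868 genes were higher and 1022 lower (16.2% of genes called), in MI6h 722 and 846 (13.5%), and in MI1h 23 and 71 (0.806%). In all 3 injuries 36 genes were called with the same sign. The contrasts share no library, and across genes, which are not independent replicates, the fold changes correlated with r = 0.55 between MI24h and MI6h, 0.28 between MI1h and MI6h and 0.20 between MI24h and MI1h. MI24h and MI6h shared 902 calls of the same sign and 0 of opposite sign, 47.7% of the first list and 57.5% of the second. MI24h and MI1h shared 45 of the same sign and 1 of opposite sign. The MI1h count depended on single libraries: it was 1136 without MI1h_R replicate 41, 2 without F4 of MI1h_F, 11 without its F5, 14 without MI1h_R replicate 31 and 41 without replicate 11. It was also 145 without MI24h replicate 11, 208 without F1 of MI6h_F and 51 without F2 of MI24h_F. In the same way MI24h had 637 calls without F1 of MI24h_F, and MI6h had 464 without F2 of MI6h_F, 952 without its F1, 532 without MI6h_R replicate 11 and 721 without replicate 21.

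Whether the effect of F differed between injuries was tested with the interaction of F and injury. By edgeR 0 of the 11656 genes (0%) were called, with a smallest adjusted p of 0.171, although 1900 genes (16.3%) had an unadjusted p under 0.05. DESeq2 called 267 genes and limma-voom with quality weights 1652, and edgeR called 25 without F1 of MI1h_F, 2 without MI1h_R replicate 11 and 1 without MI1h_R replicate 41. The methods differed and each group held 3 libraries, so these tests do not settle whether the F effect differed between injuries. The uneven counts above do not settle it either. The smallest interaction p-values belonged to Rpl41 (-2.69 in MI24h, -5.59 in MI1h and 0.55 in MI6h), Zbed5 and the mitochondrial ATP8 (2.19 in MI24h, -3.04 in MI1h and 1.43 in MI6h), each with edgeR adjusted p = 0.171. For Rpl41 and ATP8 the highest value was that of MI1h_R replicate 41, which had 1737 and 1190 counts of them. The averaged fall of Rpl41 (-2.56 ± 0.82, edgeR adjusted p = 0.0258) was not called without MI1h (-0.85), without MI24h (-2.49), nor without F1, F4 or F5 of MI1h_F (-2.13, -2.02 and -2.10). Interferon response genes pointed in different directions, with list medians of -0.14 in MI24h, -1.23 in MI1h and 1.25 in MI6h. In the average 3 of 27 were called lower, beside 15.4% of all genes. No gene passed the edgeR test of a difference between injuries.

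Fold changes were related to gene length. Relative length was taken from the ratio of deposited counts to TPM, scaled so that the typical gene has 1. The log2 fold change rose by 0.0676 per doubling of length over the 11656 genes (r = 0.167, 2.78% of the variance; across genes). The genes were put in 10 length classes of equal size. In the shortest class, at a median relative length of 0.227, 7.12% were called higher and 19.7% lower with a median of -0.15, and in the longest class, at 2.89, 23.8% were called higher and 4.55% lower with a median of 0.15. Genes called higher had a median length of 1.35 and genes called lower 0.809. The slope was 0.0725 in MI24h, 0.129 in MI1h and 0.00346 in MI6h.

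**Figure D5:**
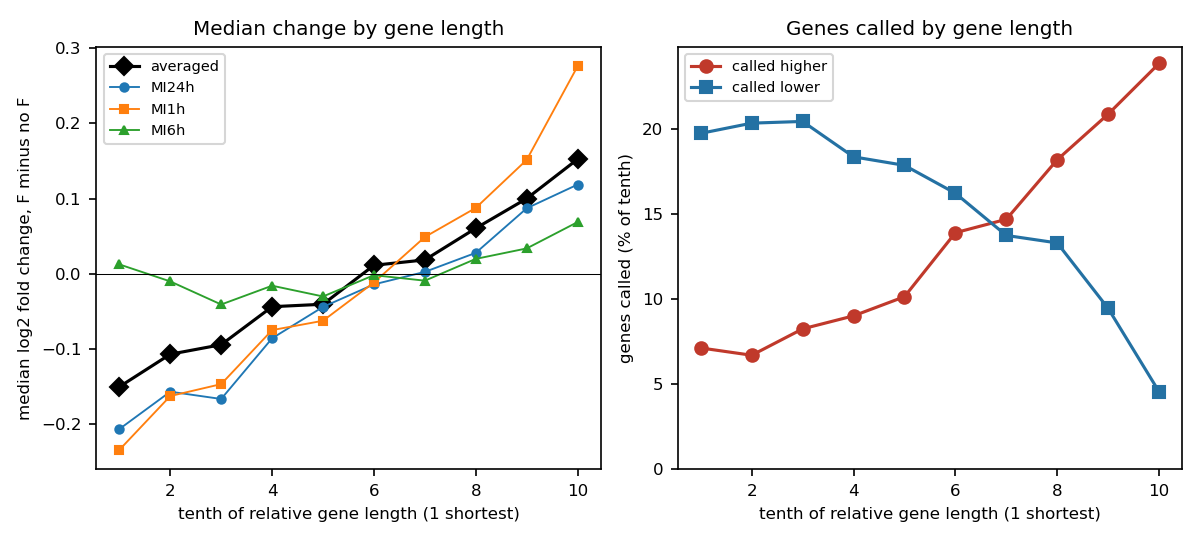
Left, median log2 fold change (F minus no F) by class of relative gene length (10 classes of equal size), averaged and for each injury; right, percentage of genes called higher and lower in each class. The averaged median climbs from -0.15 in the shortest to 0.15 in the longest class, and the MI6h line stays nearly flat.

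The slope could also be read per library, as the dependence on length of its deviation from the mean of the libraries without F. It was 0.0718 ± 0.0268 with F and 0 ± 0.0881 without (SD, n = 9 each; exact permutation within injury over 8000 assignments, two-sided p = 0.0255). The values with F, from 0.0226 to 0.102, lay inside the range without F, from -0.113 to 0.105. The libraries without F were thus the more variable, and the most negative were MI1h_R replicates 31 and 11 and MI24h replicate 41. When a smooth trend on length was removed from each library, 3283 genes were called, 1538 higher and 1745 lower. Of the original calls 2753 stayed with the same sign, 587 were lost and 530 were new. The shortest class then had 14.2% called higher and 14.0% lower, and the longest 12.95% and 14.8%. The falls of Esrra (-0.80), Srf (-0.66), Bax (-1.03) and Tnfrsf12a (-1.46) and the rises of Mki67 (0.99), Col1a1 (1.34), Cthrc1 (1.41), Lyve1 (0.70) and Alox15 (2.33) all remained called.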

How the data were processed

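RNA-seq of rat infarct-zone tissue was analysed in 18 of 21 libraries, grouped by the sample titles. The deposited expected counts (whole numbers in the file) and TPM came from STAR 2.7.3a and RSEM 1.3.1 on rn7, per the submitters' processing notes; the use of strand in counting is not given in the sources used here. Genes with low counts were removed with edgeR's filter, leaving 11656 of 17085, and libraries were scaled by TMM. The main test was edgeR 4.0.16 quasi-likelihood on injury plus F in R 4.3.3, with Benjamini-Hochberg adjustment over all tested genes and a threshold of 0.05. A model with 1 term per group gave the contrast in each injury and the interaction. Fold changes are log2, F minus no F, ± SE, and CPM is TMM-scaled. Relative length was the median ratio of deposited counts to TPM over libraries with at least 10 counts. Single library measures were tested by exact permutation within injury, whose smallest p is 0.00025. The fits were checked on simulated data.

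Named were fixed PPAR and ERR genes, up to 12 genes a direction by size (mean CPM of at least 10, one sign in all injuries), up to 8 by p, up to 6 by interaction p, and up to 4 called members of each list. Genes and lists were chosen with earlier results of these data known. Alternatives were DESeq2 1.42.0, limma-voom and limma trend on log2(TPM + 1) with limma 3.58.1, other scaling, filters and gene sets, all 21 libraries, a replicate block, each injury or library left out, and length removal. Same-numbered libraries did not deviate together (13 pairs, r from -0.54 to 0.30, 2 of them over 0.1), so the numbers were not used as pairs. Some genes of the lists are not reported here by name.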

Additional observations from a re-analysis of the deposited data

Results flagged for a closer look

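Over 44 sets of 9 libraries checked for a single value standing apart, 3 had one. Chance gives about 1 in 20 where the 9 are of one kind. Each set here pooled the injuries, so whether 3 of 44 exceeds chance was not tested. All 3 flagged values came from libraries without F. MI1h_R replicate 31 had 12162 genes with a count, the nearest library 12514. MI24h replicate 11 had a summed neutrophil marker level of 4272 CPM, against 2212 CPM in the nearest library. MI1h_R replicate 31 had a summed B cell marker level of 49.8 CPM, against 30.6 CPM in the nearest. No gene was called for a difference of the F effect between injuries by edgeR, where 1900 genes had an unadjusted p under 0.05, DESeq2 called 267 and limma-voom 1652.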

How the results depend on the processing

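The averaged count of 3340 genes was 1302 without MI24h, 1182 without MI6h and 3733 without MI1h. It was 2749 to 3780 with 1 library left out. With the replicate block 2508 genes were called, 2489 of them shared. The interaction count of 0 was 267 by DESeq2, 1652 by limma-voom and 0 to 25 with 1 library left out. The MI24h count of 1890 was 2870 by limma-voom and 637 to 2152 with 1 library left out. The MI1h count of 94 was 58 with library size alone, 699 by DESeq2, 2872 by limma-voom, 58 on log2(TPM + 1), 9 with all 21 libraries and 2 to 1136 with 1 library left out. The MI6h count of 1568 was 464 to 1820 with 1 library left out. The length slope of 0.0676 became -0.0036 once the trend was removed, by construction; the cause of the other moves was not tested. No replicate block could be fitted within an injury, and protein length was not used here. Of 182 called named genes, 156 kept their call without any 1 library and 26 lost it without some library. With an injury left out, 67 lost it without MI24h, 70 without MI6h and 28 without MI1h. It was lost by 20 without the 2 F4 libraries (chosen after seeing the data), by 18 each with all 21 libraries, on log2(TPM + 1) and with length removal, by 16 with the replicate block and by 7 with limma-voom. On log2(TPM + 1) Cenpf was 1.19, Aspm 1.00, Slc4a1 1.20, Hemgn 0.98, Igf1 0.40 and RGD2320734 1.38, all still called. With 3 libraries a group, per-injury counts had little precision.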

Other observations

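Mesothelial and epicardial genes, which mark the outer lining of the heart, gave differing readings by gene and by sum. Of 8 tested members 3 were called higher with F (Krt8, Krt19 and Gpm6a) and 0 lower, beside 13.3% and 15.4% of all genes. The median log2 fold change was 1.36. The summed level of the list ran the other way, at 245 to 917 CPM with F (median 502) and 386 to 1023 without (median 719). Krt19 had 0 to 25 counts and Krt8 1 to 52 counts in the 18 libraries. Krt8 was not called without MI6h_R replicate 11 (1.61), MI6h_R replicate 31 (1.65) or MI24h_F replicate F1 (1.72), nor without MI1h (1.69) or MI6h (1.02), and Gpm6a was not called without MI24h (1.53) or MI1h (0.93). The fold change of Krt19 was 3.499 and, without MI1h_R replicate 41, 5.44.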
